A study of Mus musculus with 13 samples.

Results

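The mouse antibody genes lie at 3 loci: Igh, the heavy chain locus (mm10, chr12:113256204-116009954), Igk, the kappa light chain locus (chr6:67555636-70726754), and Igl, the lambda light chain locus (chr16:19061752-19260844). All deposited single nucleotide variants (SNVs) and short insertions or deletions (INDELs) lying inside these spans were taken, together with every copy number call that overlaps them. This gave 2458 of 1074221 SNV and INDEL rows (0.229%), 1095 of 545409 distinct variants, and 2 copy number calls. The spans were set by position, not by any measured value.

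Whole-genome DNA came from GFP+ bone marrow cells of C57BL/6 mice aged 8 to 10 weeks, with 1 library per group and pairs of 150 bp reads planned at 30x. The leukaemias arose in mice whose marrow cells carried retroviral N-Myc. The groups were B-ALL (acute B-lymphoblastic leukaemia, sorted as B220+), T-ALL (CD3+), AML (acute myeloid leukaemia, Mac1+Gr1+), AUL (acute undifferentiated leukaemia, negative for B220, CD3, Mac1 and Gr1), M-MPAL and T-MPAL (the Mac1/Gr1+ and the CD3/4/8+ fraction of mixed-phenotype acute leukaemia, both B220-) and GFP+ cells of empty control mice. The first 4 came from 2000000 cells each, and the MPAL fractions and the control from 1000000 each, under a second protocol text. No normal DNA from the same animals was used here, and inherited and acquired variants cannot be told apart. With 1 library per group, intervals cover counting error only, and differences between groups were not replicated.

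Antibody loci hold arrays of variable (V) segments, joining (J) segments and constant genes, and the heavy chain locus also has diversity (D) segments. Developing B cells join a V, a D and a J segment with the RAG recombinase, which removes or inverts the DNA between them. Later the enzyme AID mutates joined V regions and breaks the repeated switch regions before the heavy chain constant genes, so that a cell can change its antibody class. The annotation lists 184 V, 20 D and 4 J segments in Igh, 162 V and 5 J segments in Igk, and 3 V and 5 J segments in Igl. Igh is read from the minus strand, with its constant genes at the low-coordinate end and its V segments towards the high end.

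The INDELs of the mu switch repeat are shown because their lengths are those of whole repeat units. Some inserted stretches match a unit in length but not in every base. This repeat lies between Ighm, the first constant gene of the locus, and Ighj4, its last J segment. Alleles are given as deposited on the plus strand, 5′ to 3′, with inserted or deleted bases in capitals. An insertion was called in B-ALL, T-ALL, AML, AUL and the empty control at chr12:113424581-113424593.
mm10 allele: ccagctcagctca
inserted allele: cCAGCTcagctcagctca
A few bases further, at chr12:113424586-113424603, T-ALL had 1 insertion, AML and the empty control another, and AUL a deletion of both units.
mm10 allele: tcagctcaccccagctca
T-ALL: tCAGCCcagctcaccccagctca
AML and empty control: tCAGCGcagctcaccccagctca
AUL, deleted bases: tCAGCTCACCCcagctca
At chr12:113424746-113424763 a unit was deleted in AUL, M-MPAL and the empty control.
deleted bases: cCAGCTcagctcagctca
For contrast, a deletion in the V part that all 7 libraries carried lies at chr12:115943339-115943366, between Olfr241-ps1 and Ighv1-82, in a LINE element.
deleted bases: tCAGGATCCcaggatcccaggatcccag

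B-ALL, the leukaemia of the B lineage, had more SNVs in Igk than the empty control when annotated repeats were counted, and most of the surplus lay in 1 retroviral element. Counting calls of at least 10 reads, Igk held 145 SNVs in B-ALL (95% Poisson interval 122 to 171), 122 in T-ALL cells, 140 in AML, 112 in AUL, 107 in M-MPAL and 96 in the T-MPAL cells, against 94 (76.0 to 115) in the empty control. B-ALL thus had 1.54 times the control's number (exact conditional interval 1.18 to 2.02). Outside annotated repeats the direction turned, with 22 SNVs in B-ALL against 25 in the control, a ratio of 0.88 (0.473 to 1.63). AML had almost as many as B-ALL. The MPAL fractions, made under the same protocol text as the control, lay closest to it. Igh held 34 SNVs in B-ALL (23.5 to 47.5), 29 in T-ALL cells, 28 in AML, 39 in AUL, 26 in M-MPAL and 21 in the T-MPAL cells, against 25 (16.2 to 36.9) in the control. The ratio of B-ALL to the control there was 1.36 (0.788 to 2.38), so a difference was not detectable at this minimum depth. Among calls of at least 20 reads it was 2.36 (1.13 to 5.30). Igl held 3 SNVs in B-ALL, 5 in AML, 2 each in AUL and M-MPAL, and 1 each in T-ALL, T-MPAL and the control. Library totals differed too, with 37921 SNV calls of at least 10 reads on all chromosomes in B-ALL against 33131 in the control. The 3 loci held 0.480% of these calls in B-ALL, 0.381% in T-ALL cells, 0.457% in AML and 0.362% in AUL. The share was 0.375% in M-MPAL and 0.324% in the T-MPAL cells, against 0.362% in the control. The count ratios were not scaled to these totals.

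SNVs were denser in Igk than in the 2 Mb on each side, and less clearly so in Igh. In B-ALL, Igk held 45.7 SNVs per Mb against 4.75 per Mb in its flanks, a ratio of 9.63 (5.95 to 16.5). The same ratio was 5.92 in T-ALL cells, 10.4 in AML, 5.65 in AUL, 7.10 in M-MPAL and 7.12 in the T-MPAL cells, against 6.59 (3.95 to 11.6) in the empty control. Every library therefore showed the excess in Igk, the control included. In Igh the ratio was 2.60 (1.44 to 4.82) in B-ALL, 2.63 in T-ALL cells, 2.71 in AML and 2.575 in AUL. It was 1.80 (0.973 to 3.36) in M-MPAL, 1.61 (0.822 to 3.16) in the T-MPAL cells and 1.73 (0.929 to 3.25) in the control. The intervals of M-MPAL, T-MPAL and the control included an equal density. Without segmental duplications the Igh ratio was 1.22 (0.588 to 2.51) in B-ALL. In Igl the ratio to the flanks was 1.10 (0.219 to 3.37) in B-ALL. INDELs ran the other way in Igk, where the locus was sparser than its flanks in all 7 libraries.

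**Figure D1:**
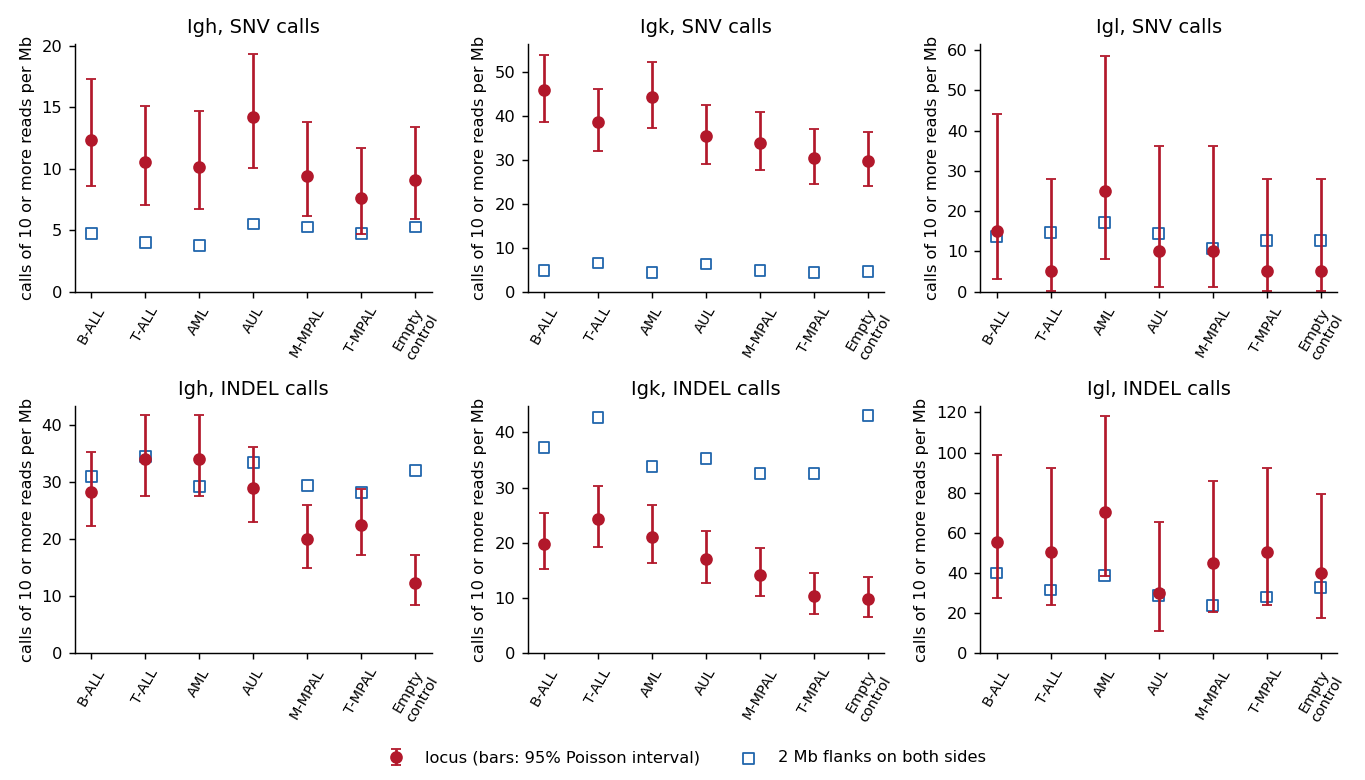
Calls of at least 10 reads per Mb inside each locus (filled circles, bars are 95% Poisson intervals) and in the 2 Mb on both sides together (open squares), for SNVs in the upper row and INDELs in the lower row, with the libraries along the horizontal axis from B-ALL to the empty control. In Igk the SNV density of every library lies far above its flanks, from 45.7 per Mb in B-ALL to 29.6 per Mb in the empty control.

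Most of the Igk SNVs sat in a pair of short stretches, defined after the data were seen as at least 20 distinct SNVs with gaps of at most 10 kb. The proximal stretch, chr6:67673347-67696538, held 110 distinct SNVs, of which 87.3% lay in a segmental duplication. All libraries were alike there, with 66 calls of at least 10 reads in B-ALL, 64 in T-ALL cells, 67 in AML, 65 in AUL, 68 in M-MPAL, 66 in the T-MPAL cells and 59 in the empty control. At its 25 sites called in all 7 libraries the median alternative read share was 40.8% in B-ALL, 45.7% in T-ALL cells, 41.2% in AML, 42.9% in AUL, 46.2% in M-MPAL, 40.9% in the T-MPAL cells and 46.0% in the control. Outside both stretches Igk was as sparse as its flanks, with 15 SNVs in B-ALL against 10 in the empty control. There the ratio of the locus to its flanks was 0.996 (0.471 to 2.07) in B-ALL and 0.701 (0.289 to 1.60) in the control.

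The second stretch, chr6:68243699-68250660, lies between the V segments Igkv2-112 and Igkv14-111 and separated the libraries. All of its 93 distinct SNVs lay in annotated repeats, 92 of them in 1 long terminal repeat (LTR) entry, the annotation of endogenous retroviruses, and none lay in a segmental duplication. It held 64 calls of at least 10 reads in B-ALL, 46 in T-ALL cells and 62 in AML, against 26 in AUL, 28 in M-MPAL, 21 in the T-MPAL cells and 25 in the empty control. The first 3 libraries lay well above the other 4. AUL lay with the low ones although it shares the protocol text of the first 3. Without this element B-ALL had 1.17 times (0.841 to 1.64) the Igk SNVs of the control.

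Of the element's SNVs, 58 were called in 1 or more of B-ALL, T-ALL and AML and in no other library. Calls in these 3 libraries and no other made up 22 of them. That was 22 of the 349 distinct SNVs of the 3 loci (6.30%, 95% Clopper-Pearson interval 3.99 to 9.39), against 0.616% of all distinct SNVs on chromosomes 1 to 19 and X. All 22 lay in this element. Neighbouring SNVs are not independent, so the interval is too narrow and the 22 are not separate observations of the pattern. Among all SNVs in LTR entries the share was 1.13%. The pattern formed 4 stretches of at least 10 SNVs across these chromosomes, holding from 18 to 41 SNVs each, so the Igk element was not the only one. Beyond these, B-ALL and AML alone shared 9 SNVs of the element, and B-ALL and T-ALL alone shared 6. Over the 3 loci that last pair shared 10 SNVs (2.87%), against 0.768% of all SNVs.

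Single sites, picked as examples, had similar shares in the 3 libraries. At position 68249500 of chromosome 6 the alternative base was on 51 of 81 reads in B-ALL, 53 of 87 in T-ALL cells and 50 of 74 in AML. Position 68250031 had 67 of 106 reads in B-ALL, 64 of 105 in T-ALL cells and 61 of 97 in AML. At position 68249667 the shares were lower in all 3 alike, with 24 of 79, 24 of 82 and 25 of 79 reads. None of these sites had a call in AUL, M-MPAL, T-MPAL or the empty control, whose depth at sites without a call was not used here. Over the 22 sites the share of a site differed between the highest and the lowest of the 3 libraries by a median of 6.59 percentage points, and by at most 23.1. Less alike was the site 5.52 kb from the element's first SNV, with 45.8% in B-ALL, 22.6% in T-ALL cells and 26.2% in AML.

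Depth was also higher at these sites. Over the 22 sites B-ALL had a median of 77 reads, T-ALL of 74 and AML of 70. At the 11 sites of the element called in all 7 libraries it was 46 in B-ALL, 51 in T-ALL cells, 42 in AML, 42 in AUL, 43 in M-MPAL, 38 in the T-MPAL cells and 32 in the empty control. One of these 11, position 68250254, lies among the deep sites and had 98 reads in B-ALL, 77 in T-ALL cells and 83 in AML, against 47 in AUL, 42 in M-MPAL, 38 in the T-MPAL cells and 32 in the control. The median mapping quality of the element's calls was 37 in B-ALL, T-ALL and AML each, against 41 in AUL, 41 in M-MPAL, 43 in the T-MPAL cells and 41 in the control. The part of mapping in the pattern was not tested.

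**Figure D2:**
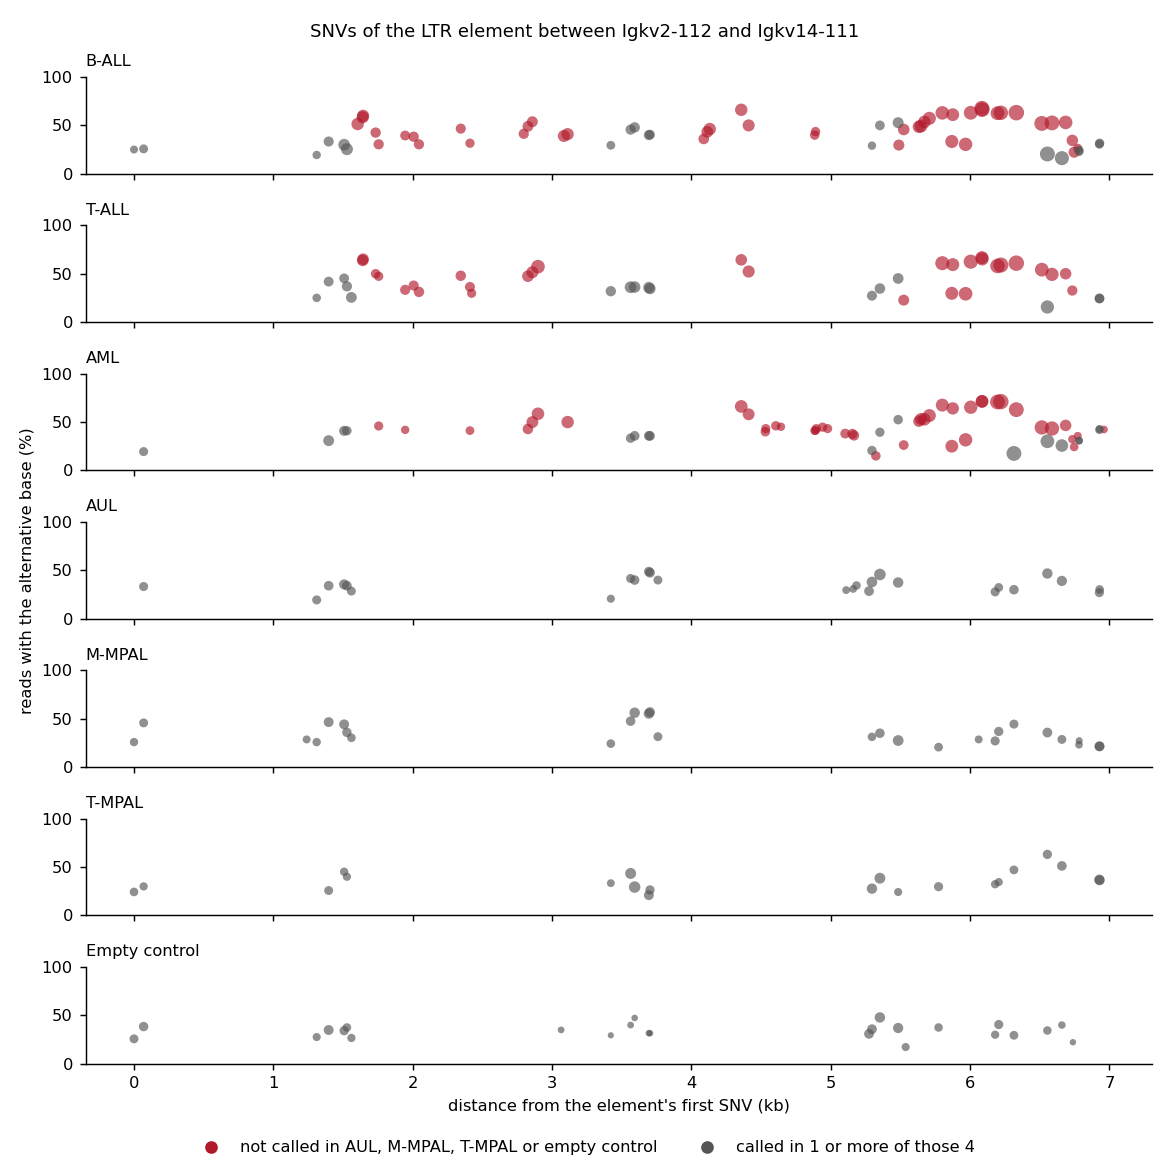
Share of reads with the alternative base (vertical axis, percent) at each SNV of the LTR element against its distance from the element's first SNV (kb), 1 panel per library with B-ALL at the top and the empty control at the bottom, and dot area proportional to read depth. Red dots are SNVs not called in AUL, M-MPAL, T-MPAL or the empty control, and grey dots are the others. The 22 sites called in B-ALL, T-ALL and AML alone have median depths of 77, 74 and 70 reads.

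The Igh locus was described by its parts, because recombination and switching act at different ones. The part from Ighm to the J segments, only 7.10 kb long, held 21 distinct calls, all within 709 bases of the mu switch repeat (first call 1646 bases from Ighm) and all annotated as simple repeat. B-ALL had 6 SNVs of any depth there, AML 2, AUL 3, and T-ALL, M-MPAL and T-MPAL 0, against 5 in the empty control. At any depth the B-lineage leukaemia and the control had the most. With at least 10 reads there were 5 in B-ALL, 2 in AML and 3 in AUL, against 3 in the control. The T-lineage libraries and M-MPAL had no SNV call, and M-MPAL had 1 INDEL call, T-MPAL 3 and T-ALL 5. At position 113424573 of chromosome 12 the alternative base was on 9 of 17 reads in B-ALL, 10 of 22 in AML and 6 of 16 in AUL, against 4 of 8 in the empty control. Position 113424836 had it on 6 of 15 reads in B-ALL and 5 of 21 in AUL, against 7 of 21 in the control. Position 113424975, on 7 of 9 reads in B-ALL, was the 1 SNV of the repeat that B-ALL alone carried, and it fell under the minimum of 10 reads.

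The repeat's 13 distinct INDELs, 8 insertions and 5 deletions, all changed its length by 1 or 2 units: 11 were of 5 bases and 2 of 10. Outside the repeat 0.682% of the 733 other INDELs of the 3 loci, and 0.874% of all INDELs, had one of these lengths. The insertion at 113424581, printed above, was on 12 of 12 reads in B-ALL, 8 of 8 in T-ALL cells, 16 of 17 in AML and 13 of 13 in AUL, against 8 of 8 in the empty control. It was thus on nearly all reads wherever it was called. The neighbouring insertion at 113424586 was on 8 of 8 reads in T-ALL, and its other form on 19 of 21 in AML, against 7 of 8 in the control. The deletion at 113424746 was on fewer reads, 7 of 25 in AUL and 2 of 5 in M-MPAL, against 10 of 21 in the control. The calls in this repeat had a median depth of 15 reads for B-ALL, 8 for T-ALL, 19 in AML, 16 in AUL, 5 in M-MPAL and 7 in the T-MPAL cells, against 9 in the empty control. The libraries with fewest calls had the shallowest calls, and the part of depth in these counts was not tested.

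**Figure D3:**
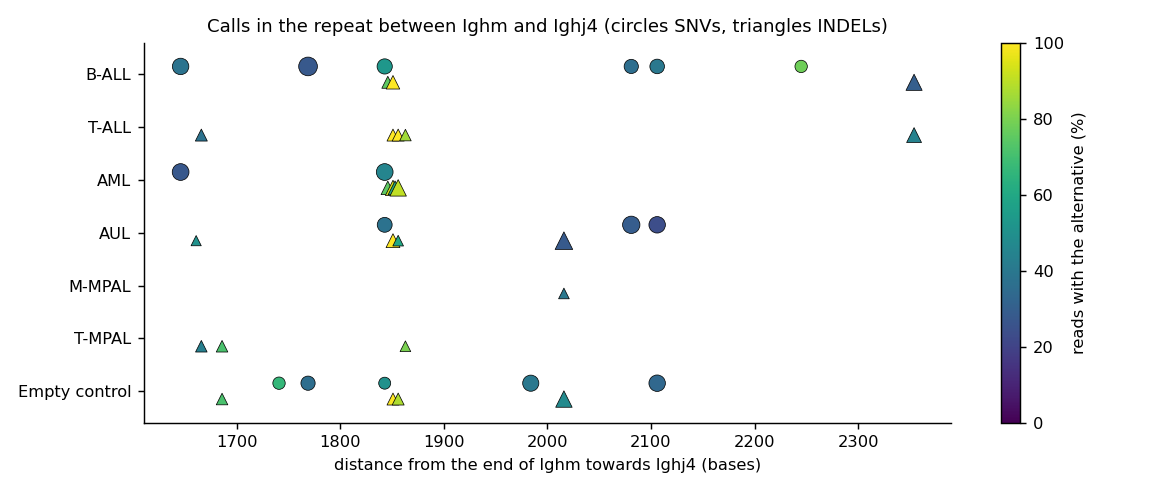
Calls in the repeat between Ighm and Ighj4 by distance from the end of Ighm (bases), 1 row per library from B-ALL at the top to the empty control at the bottom, circles for SNVs and triangles for INDELs, coloured by the share of reads with the alternative and larger with depth. B-ALL and the empty control have 6 and 5 SNVs of any depth (5 and 3 with at least 10 reads), whereas T-ALL, M-MPAL and T-MPAL have none.

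The other constant-gene and D parts held few calls. Across the 167 kb from the low end of Igh to Ighm there were 2 distinct SNVs and 15 INDELs. The one called in all 7 libraries was a 2-base insertion in a simple repeat of Ighe, the epsilon constant gene, at position 113269867, on 16 of 23 reads in B-ALL, 21 of 27 in T-ALL cells, 14 of 18 in AML, 28 of 31 in AUL, 10 of 11 in M-MPAL and 22 of 24 in the T-MPAL cells, against 23 of 26 in the empty control. Ighe also had a 2-base deletion on 5 of 12 reads in T-ALL and on the single read of AUL. Ighd, the delta constant gene, had a 2-base deletion on 5 of 20 reads in AML and 6 of 21 in AUL. The D part, 97.0 kb, held 2 distinct SNVs and 22 INDELs, and no call of any depth fell inside a D or a J segment of the 3 loci. The better covered of its SNVs was private to AUL, at position 113524308 between Adam6b and Ighd3-1, on 14 of 25 reads.

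Of the 396 V, D, J and constant segments of the 3 loci, 6 held a call within their annotated span. Next to Ighe with 2 distinct calls and Ighd with 1, these were Igkv2-105 with 2, Ighv7-1 with 1, Igkv2-113 with 1 and Igkv4-91 with 1. All of these were INDELs in simple repeats. The one in Igkv4-91, the only V segment among them that is not annotated as a pseudogene, was on 5 of 13 reads in B-ALL and 6 of 14 in the empty control. In Igl no segment held a call. The share of the loci's bases that lies inside segments was not computed. Whether calls were rarer inside V, D, J and constant segments than between them was therefore not tested. The deposited annotation placed none of the calls of the 3 loci in an exon or splice site. It labelled all but 1 of the 1095 distinct calls intergenic, so it cannot show whether exons of antibody segments were hit. Calls of at least 10 reads also lay in genes that are no antibody segments: the long noncoding RNA genes Gm30948, Gm30996, Gm40899, Gm40900, Gm46961, Gm51964, LOC108169192, LOC105246083 and Gm35545, and the pseudogenes Gm9251, Gm9260 and Gm8828.

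The V part of Igh carried a set of variants present on all or nearly all reads of every library. Of 39 Igh sites called in all 7 libraries, 31 had the alternative on at least 90% of reads in each library. The printed 8-base deletion was on 19 of 19 reads in B-ALL, 26 of 26 in T-ALL cells, 28 of 28 in AML, 30 of 30 in AUL, 21 of 21 in M-MPAL, 20 of 20 in the T-MPAL cells and 33 of 33 in the empty control. By contrast, in Igk only 5 of 44 such sites reached 90%, and in Igl all 5 did. At position 113700287, between Ighv5-11 and Ighv5-12 in a segmental duplication, the libraries split: the alternative was on 31 of 33 reads in B-ALL, 25 of 25 in AML, 37 of 37 in M-MPAL and 27 of 27 in the T-MPAL cells, but on 23 of 36 in T-ALL cells and 19 of 33 in AUL, against 8 of 24 in the empty control. Position 113734146 also had the alternative on most reads in the same 4 libraries and on fewer in the other 3, with 22 of 25 reads in B-ALL, 14 of 26 in T-ALL cells, 17 of 17 in AML, 28 of 42 in AUL, 23 of 23 in M-MPAL and 26 of 26 in the T-MPAL cells, against 8 of 14 in the control. Both sites were picked with their values in view.

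Over the 3 loci 57 of 349 distinct SNVs (16.3%, 12.6 to 20.6) were called in all 7 libraries, against 25.9% of all SNVs, and 31 of 746 INDELs (4.16%, 2.84 to 5.85), against 1.87% of all INDELs. Calls in all 6 leukaemias and not in the control numbered 10 SNVs (2.87%, against 2.26% of all SNVs) and 3 INDELs (0.402%, against 0.279%). The shares of this last pattern lay near those of all chromosomes. At position 114979228, between Ighv1-46 and Ighv1-47, the alternative was on 22 of 22 reads in B-ALL, 30 of 30 in T-ALL cells, 22 of 22 in AML, 32 of 32 in AUL, 26 of 26 in M-MPAL and 20 of 20 in the T-MPAL cells, with no call in the empty control. The control's depth at this site is not known, so the variant cannot be called absent from it. This example was picked with its values in view.

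A call was counted as private where its library had at least 10 reads and the other 6 did not list it at all. B-ALL had 14 private SNVs (7.65 to 23.5) in the 3 loci, 7.69% of its calls there, against 6.48% of its calls on all chromosomes. The share was 5.92% in T-ALL cells (9 SNVs, against 10.8%), 10.4% in AML (18, against 6.79%), 20.3% in AUL (31, against 17.7%), 8.89% in M-MPAL (12, against 8.88%) and 3.39% in the T-MPAL cells (4, against 7.29%). The empty control had 9, or 7.50%, against 6.68%. In every library the interval of the share included the value for all chromosomes. Of the 14 in B-ALL, 7 lay in the LTR element and 4 in Igh. Those in Igh were named after their values were seen. They are 113335914 between Ighg1 and Ighg3, genes of gamma constant regions (4 of 10 reads), the adjacent positions 113960503 and 113960504 between Ighv4-1 and Ighv3-1 (19 of 20 reads each, in a duplicated LTR element) and 115229389 in a simple repeat between Gm7142 and Ighv1-56 (6 of 16). The base before that adjacent pair, 113960502, was called in B-ALL (19 of 20), AML (22 of 22), AUL (25 of 25) and T-MPAL (14 of 14). Asking for no call within 10 bases in another library left 11 of the 14 private SNVs.

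In B-ALL the private SNVs with the most alternative reads all lay in the LTR element, at positions 68245304 (35 of 68 reads), 68247831 (31 of 67) and 68247813 (26 of 60). AML had 68248305 (18 of 39) and 68248641 (17 of 38) in the same element and 67691138 (18 of 73) in the proximal stretch of Igk. T-ALL had 114942649 in Igh, between Ighv1-42 and Ighv1-43 (18 of 43), and 67696538 (16 of 39) and 67691648 (13 of 35) in the proximal stretch. The V segments themselves held none of these SNVs.

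Of the 31 private SNVs of AUL, 10 lay in Igh and 24 outside both dense stretches of Igk, against 5 of 14 outside them in B-ALL. Those of AUL with the most alternative reads were all in Igh, at 113854213 between Ighv5-16 and Ighv5-17 (21 of 49 reads), at 115680735 between Gm6105 and Ighv1-70 (19 of 31) and at 115410921 in Gm30996 (19 of 46). M-MPAL had 114942616 between Ighv1-42 and Ighv1-43 (16 of 48), 67693176 in the proximal stretch (13 of 47) and 113995725 between Ighv14-2 and Ighv4-2 (12 of 26). T-MPAL had 67690859 (17 of 53), 67683256 (11 of 30) and 67694811 (7 of 35), all in the proximal stretch. The empty control had 19115168 in Igl, between LOC105246083 and Gm18748 (19 of 19), 70699695 between Igkv3-2 and Igkv3-1 (13 of 13) and 113424714 in the mu switch repeat (8 of 20).

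Pairs of libraries shared further variants alone. B-ALL and AML shared 17 of the 349 distinct SNVs (4.87%, 2.86 to 7.68), against 1.38% of all SNVs, with 9 of them in the LTR element. Outside it they included 70673169 between Igkv3-4 and Igkv3-3, on 10 of 23 reads in B-ALL and 10 of 18 in AML, 68337538 between Igkv2-107 and Igkv11-106, on 7 of 27 and 7 of 22, and 113424376 in the mu switch repeat, on 8 of 21 and 6 of 22. M-MPAL and T-MPAL shared 3 SNVs (0.860%, against 1.19%). These were 115242624 between Gm7142 and Ighv1-56, on 17 of 32 reads in M-MPAL and 13 of 29 in the T-MPAL cells, 68209527 between Igkv2-113 and Gm4873, on 17 of 32 and 15 of 23, and 69442266 between Igkv4-59 and Igkv4-60, on 7 of 21 and 7 of 16. The B-ALL and AML examples were chosen after their values were seen.

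INDELs were fewer in the empty control than in every leukaemia in Igh, and in Igk it lay close to T-MPAL. Counting calls of at least 10 reads, Igh held 78 in B-ALL (61.7 to 97.3), 94 in T-ALL cells, 94 in AML, 80 in AUL, 55 in M-MPAL and 62 in the T-MPAL cells, against 34 (23.5 to 47.5) in the control. The ratio of B-ALL to the control was 2.29 (1.52 to 3.54). In Igk there were 63 in B-ALL, 77 in T-ALL cells, 67 in AML, 54 in AUL, 45 in M-MPAL and 33 in the T-MPAL cells, against 31 in the control, with a ratio of 2.03 (1.30 to 3.23) for B-ALL. At both loci each of the 4 libraries from 2000000 cells had more INDELs than each of the 3 from 1000000 cells, so protocol and group cannot be told apart. In the flanks the control was not low: those of Igh held 124 in B-ALL against 128 in the control, and those of Igk 149 against 172. With calls of 5 or more reads the ratio in Igh was 1.45 (1.05 to 2.03) and in Igk 1.35 (0.936 to 1.94). Igl held 11 INDELs in B-ALL, 10 in T-ALL cells, 14 in AML, 6 in AUL, 9 in M-MPAL and 10 in the T-MPAL cells, against 8 in the control.

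Nearly all of these INDELs lay in annotated repeats. Repeats held 97.2% of the distinct INDELs of Igh and 96.6% of those of Igk, against 97.5% of all INDELs. Segmental duplications held 56.2% and 47.7%, against 3.40% of all INDELs. B-ALL had 52 private INDELs, 34.2% of its calls in the loci, against 33.0% of its calls on all chromosomes. T-ALL had 62 (34.3%, against 35.3%), AML 61 (34.9%, against 34.5%), AUL 41 (29.3%, against 33.3%), M-MPAL 30 (27.5%, against 32.4%), T-MPAL 24 (22.9%, against 32.1%) and the empty control 22 (30.1%, against 34.8%). INDELs called in B-ALL, T-ALL and AML alone numbered 6 (0.804%, against 0.466% of all INDELs), in B-ALL and AML alone 13 (1.74%, against 1.56%), in B-ALL and T-ALL alone 9 (1.21%, against 1.33%) and in M-MPAL and T-MPAL alone 7 (0.938%, against 0.907%). The LTR element held 0 distinct INDELs, so its pattern could not be looked for among INDELs there. The 6 INDELs called in B-ALL, T-ALL and AML alone lay outside it. For 24 of the 52 in B-ALL another library had a different INDEL allele at the same position.

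Several of the private INDELs with the most alternative reads were further lengths of a repeat that varied in most libraries. B-ALL had a 10-base insertion at 68194751 between Igkv2-113 and Gm4873 beside the 5-base one that all 7 libraries carried there (13 of 13 reads for both alleles together), and 1-base changes at 19110952 in Igl (10 of 10) and 67678410 in the proximal stretch (10 of 34). T-ALL had an 8-base deletion at 113614087 between Ighv5-5 and Ighv5-6 and the control a 6-base one, each beside a 4-base deletion that all 7 libraries carried there (12 of 12 reads in T-ALL and 10 of 10 in the control, alleles together). T-ALL also had 69572103 between Igkv13-57-1 and Igkv4-57 (9 of 14) and 114992187 between Ighv1-47 and Ighv8-3 (9 of 15). AML had an 8-base deletion at 67765133 in the V part of Igk, beside a 4-base one that all 7 libraries carried (16 of 17 reads for both alleles), and a 4-base deletion at 67673584 in the proximal stretch beside a 4-base insertion (13 of 13 for both alleles). Its other one was 19097531 in LOC105246083 (9 of 42).

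AUL had 114899434 between Ighv1-37 and Ighv1-38 (13 of 17 reads) and a pair of alleles at 70082928 between Igkv6-32 and Igkv8-31 (11 of 11, where the deposited count does not separate the alleles). M-MPAL had a 1-base insertion at 69106789 between Igkv4-78 and Igkv4-77 (18 of 18), outside annotated repeats, with 115027628 (16 of 19) and 115027650 (11 of 15) between Ighv8-4 and Ighv1-48. T-MPAL had 114669109 between Ighv1-16 and Gm46322 (8 of 30), 114051765 between Ighv11-2 and Ighv14-3 (7 of 19) and 115310816 between Ighv8-8 and Ighv1-58 (7 of 25). Besides 113614087, the empty control had 19102176 in LOC105246083 (6 of 12) and 113651827 between Ighv5-7 and Ighv2-4 (6 of 16).

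Base changes were similar between libraries. C>T changes, counted together with G>A on the other strand, made up 37.4% (30.3 to 44.8) of the SNVs of B-ALL in the 3 loci, 35.5% in T-ALL cells, 41.0% in AML, 35.9% in AUL, 39.3% in M-MPAL and 38.1% in the T-MPAL cells, against 32.5% (24.2 to 41.7) in the empty control. These intervals overlapped. On all chromosomes the share was 29.1% in B-ALL and 29.3% in the control. Leaving out the LTR element gave 25.4% (17.9 to 34.3) in B-ALL, 31.5% in AML and 22.1% (14.2 to 31.8) in the control. The share was lower without the element in all 7 libraries. T>C changes made up 31.3% of the SNVs in B-ALL and 31.7% in the control.

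Relative depth in Igh and Igk was close to 1 in B-ALL at the sites that could be compared. Relative depth here is the depth at a site over the library's median depth for that kind of call, divided by the mean of the same value over the other 6 libraries, at sites called in all 7. Over 39 Igh sites its median was 1.01 in B-ALL (95% order-statistic interval 0.959 to 1.07), 1.09 in T-ALL cells, 0.915 in AML, 1.19 in AUL, 0.906 in M-MPAL and 0.970 in the T-MPAL cells, against 0.826 (0.701 to 1.06) in the empty control. Over 44 Igk sites it was 1.06 in B-ALL (0.983 to 1.09), 1.06 in T-ALL cells, 0.971 in AML, 1.03 in AUL, 0.992 in M-MPAL and 0.937 in the T-MPAL cells, against 0.899 (0.799 to 1.06) in the control. No stretch of 5 or more successive sites fell under 0.75 in any library. From the low end of Igh to the last D segment a single site was called in all 7 libraries, the insertion in Ighe, with a relative depth of 1.02 in B-ALL. The D and J segments, where recombination removes DNA first, are therefore hardly covered by this measure. Of the 44 Igk sites, 25 were SNVs of the proximal stretch and 11 were SNVs of the LTR element. Most of Igk is thus hardly covered either, and a loss there could go unseen.

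The complete copy number tables, those of all libraries but AUL, held no call in Igh or Igk. They did hold calls down to 1 kb elsewhere. Within 2 Mb of either locus there was 1 call, a gain of 2 kb to 3 copies in M-MPAL that ended 321 kb before Igk. AUL had the single stretch of high depth in Igh, 5 sites from 115135964 (between Ighv1-51 and Ighv1-52) to 115253854 (between Gm7019 and Ighv8-7) with a median relative depth of 1.57. Its Igh flanks were at 1.13 on the low side and 1.18 on the high side.

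Igl was covered whole by a deposited call of 3 copies in B-ALL (chr16:18965001-20207000, 1242 kb) and in AML (chr16:18829001-19563000, 734 kb), and by none in T-ALL, M-MPAL, T-MPAL or the empty control. Both calls belong to chains of gains along chromosome 16 that reach 69.0 Mb in B-ALL and 94.4 Mb in AML. At the 5 Igl sites called in all 7 libraries, each an INDEL on every read, depth was 18, 32, 33, 31 and 24 reads in B-ALL and 27, 37, 44, 41 and 42 in AML, against 7, 18, 13, 24 and 14 in the empty control. AML was the deepest library at all 5. Set against the 5 other libraries, none with a gain call there (the AUL table stops before chromosome 16), relative depth had a median of 1.28 in B-ALL (range 1.01 to 1.47) and 1.62 in AML (1.61 to 1.76). The values of AML did not overlap those of B-ALL, although both calls state 3 copies. This setting was chosen after the data were seen. Scaled to all 6 other libraries instead, the median in Igl was 1.16 in B-ALL and 1.58 in AML, against 0.558 in the control. With that same scaling, the low side of Igl (49 sites) had 1.11 in B-ALL and 1.499 in AML, against 1.01 in the control. The high side (15 sites) had 1.16 in B-ALL and 1.35 in AML, against 1.10 in the control.

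The empty control's median relative depth was lower inside Igh and Igl than beside them, though the values of single sites overlapped. In Igk, at 0.899, it lay level with the low-side flank (0.898, 4 sites) and under the high-side flank (1.40, 1.08 to 1.65, 19 sites). It was 0.558 in Igl (range 0.403 to 1.04), against 1.01 and 1.10 in the flanks. In Igh it was 0.826 (0.701 to 1.06). The low-side flank of Igh had 1.07 (7 sites, range 0.515 to 1.58) and the high-side flank 1.04 (8 sites, range 0.466 to 1.61). Across chromosomes 1 to 19 the middle 80% of sites ran from 0.543 to 1.504 in the control, against 0.742 to 1.28 in B-ALL, a wider spread than in any of the 6 leukaemias. The part of this unevenness in the control's lower INDEL and SNV counts was not tested.

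**Figure D4:**
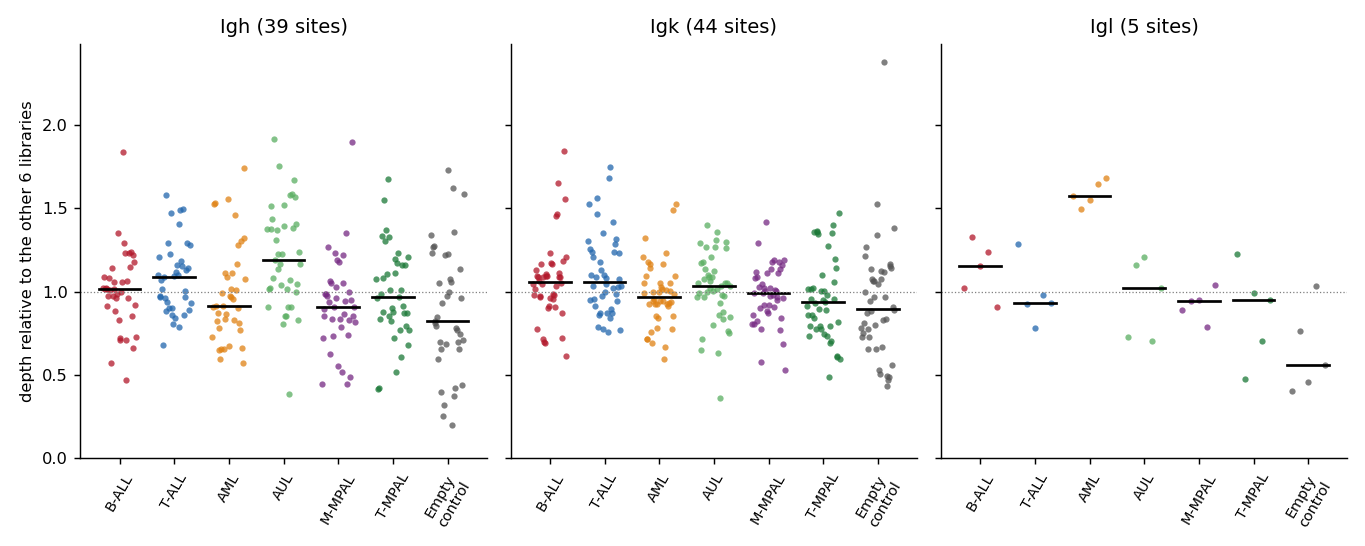
Relative depth (vertical axis, 1 is the mean of the other 6 libraries) at each site called in all 7 libraries, for Igh (39 sites), Igk (44) and Igl (5), libraries from B-ALL at the left to the empty control at the right, dots in order of position within each library, and bars for medians. AML stands apart in Igl with all sites near its median of 1.58.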

How the data were processed

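The authors' deposited tables list SNVs and INDELs called with samtools and copy number changes called with FREEC, annotated with ANNOVAR, per the file headers and names. Reads were aligned with BWA to mm10, per the submitters' processing notes. Each deposited variant row has a Phred-scaled quality score (the lowest is 20.0), a read depth and a count of alternative reads, and each copy number row a whole number of copies, 2 being normal. Versions, filters and caller settings: not given in the sources used here. For AUL the copy number table ends within a line after 17 whole rows and was left out of copy number.

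Rows were selected by position. Gene spans came from RefSeq (GRCm38.p6). Calls needed at least 10 reads unless any depth is stated. Counts carry exact Poisson intervals, shares Clopper-Pearson intervals and ratios of counts exact conditional binomial intervals, all at 95%. They cover counting error alone, as reads lacking molecular identifiers need not be separate molecules and neighbouring SNVs are not independent. Median depth at sites shared by the 7 libraries ran from 43 to 52 reads for SNVs and 18 to 22 for INDELs. Depth was divided by these medians.

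Named were antibody constant genes, D and J segments and other genes with a call of at least 10 reads, the 3 private SNVs and 3 private INDELs per library with most alternative reads, the 3 segments per locus with most calls, and the ends of depth stretches of 5 sites under 0.75 or over 1.25. The loci, members and rules were chosen with earlier results of these data known. Alternatives changed the depth and quality minimum, the treatment of repeats, duplications and dbSNP variants, the flanks and the depth scaling. The series' 6 integration-site samples were not analysed here. Python 3.11.15, pandas 2.3.3 and scipy 1.17.1 were used, and the scripts were tested on simulated data.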

Additional observations from a re-analysis of the deposited data

How the results depend on the processing

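Results are given for B-ALL, as ratios to the empty control or to the flanks. Count ratios to the control were not scaled to library totals. The Igk SNV count ratio (1.54) turned to 0.88 without annotated repeats, and was 2.33 at quality 100 or more, 2.35 without segmental duplications and 2.42 without dbSNP variants. The ratio of Igk to its flanks (9.63) was 19.2 at 20 or more reads, 5.52 at quality 100, 1.98 without repeats and 5.31 without duplications. That of Igh (2.60) was 6.29 at 20 reads and 1.22 without duplications, and that of Igl (1.10) 0 without repeats. The INDEL ratio in Igh (2.29) was 1.45 at 5 reads, 1.4 without repeats and 4.5 without duplications, and in Igl (1.38) 7 at 20 reads. The 14 private SNVs became 6 at quality 100, 2 without repeats, 9 without duplications, 8 without dbSNP variants and 30 where AML was allowed the variant. The C>T share (37.4%) was 17.6% without repeats and 45.5% without duplications. Relative depth scaled to the flanks was 1.13 in Igh (1.01 before) and 1.203 at the constant to D part (1.02), which was 1.05 over sites called in B-ALL and the control. Further settings were chosen after seeing the data. Without the LTR element the Igk count ratio was 1.17, the ratio to the flanks 5.38, the private SNVs 7 and the C>T share 25.4%. Without both dense stretches the ratio to the flanks turned to 0.996, with 5 private SNVs and a share of 21.2%. The constant to D part was 1.14 with raw depth and 0.988 over sites called in B-ALL and 1 or more others. Apart from what these settings leave out by construction, the cause of each shift was not tested. The other 68 values stayed within their intervals or within 1.5 times their count. Among them the Igh SNV count ratio (1.36) was 2.36 at 20 reads, and that of Igl (3) was 1 at 5 reads and without dbSNP variants. No value could be had for the Igl SNV ratio at 20 reads or without repeats, nor for depth over SNV sites alone in Igl and the constant to D part. No paired analysis was possible because each group has 1 library. Few Igl calls, 1 site between the constant genes and D segments, and call tables without depth at uncalled sites limit what these data can show.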
